A study of Mus musculus with 6 samples.

Results

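The genes described here are 8 genes of isoleucine, valine and propionate breakdown, measured in the livers of mice with a liver knockout of Klf15 and of control mice: Acadsb, Acat1, Acad8, Hibch, Hibadh, Aldh6a1, Pcca and Pccb. They were chosen by name from the isoleucine and valine branches down to propionyl-CoA carboxylase, and all 8 were found among the 48432 genes of the deposited table. Livers of mice aged 10 weeks were profiled by RNA sequencing in 2 groups of 3 libraries. The Li-KO group is labelled as a knockout, in liver, of Klf15, a zinc finger transcription factor of the Kruppel-like family, and its label names no Cre line. The control group, Ctl, carried Albumin-Cre, a transgene in which the promoter of the albumin gene drives Cre recombinase in hepatocytes, so that other liver cells are expected to keep their Klf15 in a knockout made that way. The labels give no sex, feeding state or time of day, and they do not say whether each library came from a separate mouse. The p-values therefore measure the spread between these libraries, which may be technical.

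Isoleucine and valine are essential amino acids whose carbon chains are broken down in mitochondria after amino transfer and oxidative decarboxylation. The isoleucine branch ends in acetyl-CoA and propionyl-CoA, while the valine branch passes through a free acid, 3-hydroxyisobutyrate, and ends in propionyl-CoA. Propionyl-CoA carboxylase then starts the conversion of propionyl-CoA to succinyl-CoA, an intermediate of the citric acid cycle, and inherited loss of either of its subunits causes propionic acidaemia in humans.

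The libraries held 30132496 to 42782324 fragments in Li-KO and 35454667 to 42433779 in Ctl. Klf15 itself had 54.3, 41.6 and 51.8 CPM (counts relative to the library total after scaling between libraries) in Li-KO replicates 0, 1 and 2, against 345, 174 and 196 CPM in Ctl replicates 0, 1 and 2, a change of -2.28 ± 0.26 on the log2 scale (SE, adjusted p = 0.00275) that left 20.6% of the Ctl level, with 1295 to 2131 fragments in each Li-KO library. All 3 Li-KO libraries were below all 3 Ctl libraries, and the labels do not say which exon was deleted, so that fragments of a remaining transcript cannot be told from those of cells that kept the gene. Of the 8 hepatocyte markers listed, 4 (Apoa1, Ttr, Hnf4a and Asgr1) remained once genes skipped by Cuffdiff, a program the authors used, were left out. Alb, Tf, Cps1 and Serpina1a did not remain, so their sum covers only a part of the list. The 4 summed, relative to library totals without the skipped genes, to 15392 to 16935 CPM in Li-KO and 13784 to 17014 CPM in Ctl. Within that sum Ttr (6336 to 9093 CPM in Li-KO, 5312 to 5468 CPM in Ctl) and Asgr1 (408 to 515 CPM in Li-KO, 393 to 402 CPM in Ctl) were higher in every Li-KO library. Apoa1 (5506 to 7612 CPM in Li-KO, 6645 to 9820 CPM in Ctl) and Hnf4a (1036 to 1342 CPM in Li-KO, 1253 to 1331 CPM in Ctl) overlapped. By edgeR 0 of the 4 passed the test, 1 had an unadjusted p under 0.05, and DESeq2 called 1. The summed CPM ranges of Kupffer cell (187 to 270 against 204 to 280), endothelial (421 to 637 against 509 to 543), stellate (542 to 699 against 565 to 583), cholangiocyte (46.1 to 156 against 32.9 to 62.4) and lymphocyte markers (16.5 to 34.0 against 22.2 to 27.9) overlapped between Li-KO and Ctl, as did those of adipose, muscle and pancreas markers (6.31 to 8.94 against 7.31 to 13.3), of which Ckm, Cpa1 and Prss2 were at 0. Of the 6 stellate markers, 2 had an unadjusted p under 0.05 and 0 were called by edgeR or DESeq2. Dcn was lower in every Li-KO library (147 to 182 CPM, against 201 to 213 CPM in Ctl). The others overlapped, with Col3a1 at 44.9 to 244 CPM in Li-KO and 39.7 to 62.6 CPM in Ctl. The 5 erythroid markers summed to 246 to 497 CPM in Li-KO and 601 to 663 CPM in Ctl with no overlap. By edgeR 0 of the 5 passed the test, 3 had an unadjusted p under 0.05, and 2 were called by DESeq2. Among the 6 cholangiocyte markers, 3 had an unadjusted p under 0.05 and 1 was called, Sox9, with 2.01 to 3.42 CPM in Li-KO and 11.5 to 16.5 CPM in Ctl. Epcam had 1.76 to 2.11 CPM in Li-KO and 0.919 to 1.17 CPM in Ctl, and Spp1 38.9 to 148 CPM in Li-KO and 18.6 to 41.9 CPM in Ctl. The part of these differences in the results was not tested. In whole liver, fewer cells of a type and less RNA per cell cannot be told apart.

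Of the 8 genes, 3 fell in Li-KO livers (Acadsb, Aldh6a1 and Pcca), 1 rose (Acad8) and 4 did not pass the test (Acat1, Hibch, Hibadh and Pccb). A call means an adjusted p under 0.05 by edgeR's quasi-likelihood test (two-sided), fitted on all 16533 genes with enough counts. Lower calls made up 5.90% of all genes tested and higher calls 6.11%. The groups did not overlap for 5 of the 8 genes in the lower direction (17.8% of all genes tested) and for 1 in the higher direction (17.4%). The median log2 fold change of the 8 genes was -0.43, against -0.01 for all genes tested. All 8 genes passed the filter on low counts, with 1577 to 33599 fragments per library, so that the widest 95% Wilson interval of a library's share of fragments was ± 4.94% of its value (counting error only).

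The changed genes sat at different places of the pathway. Acadsb opens the isoleucine branch after decarboxylation, Acad8 opens the valine branch, Aldh6a1 closes the valine branch, and Pcca takes up the propionyl-CoA that both branches give. The 250 bases before the RefSeq start of each of these 4 genes are shown, because Kruppel-like factors are known to bind CACCC and GC boxes. Capitals mark CACCC or GGGTG, its reverse complement, and CCGCCC or GGGCGG, its reverse complement. Each sequence is from RefSeq on GRCm38.p6 and reads 5′ to 3′ on the strand of its gene.
Acadsb, chr7:131410351-131410600, plus strand: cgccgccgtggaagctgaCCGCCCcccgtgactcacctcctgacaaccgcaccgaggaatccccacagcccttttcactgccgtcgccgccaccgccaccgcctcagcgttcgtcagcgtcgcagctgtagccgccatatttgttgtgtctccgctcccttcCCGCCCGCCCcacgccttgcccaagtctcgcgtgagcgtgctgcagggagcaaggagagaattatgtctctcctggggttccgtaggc
Aldh6a1, chr12:84451025-84451274, minus strand: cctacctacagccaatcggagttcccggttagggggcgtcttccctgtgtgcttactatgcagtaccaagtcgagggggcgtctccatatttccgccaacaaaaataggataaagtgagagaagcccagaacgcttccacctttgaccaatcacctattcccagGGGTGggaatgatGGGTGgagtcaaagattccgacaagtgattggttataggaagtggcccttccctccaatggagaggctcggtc
Pcca, chr14:122534078-122534327, plus strand: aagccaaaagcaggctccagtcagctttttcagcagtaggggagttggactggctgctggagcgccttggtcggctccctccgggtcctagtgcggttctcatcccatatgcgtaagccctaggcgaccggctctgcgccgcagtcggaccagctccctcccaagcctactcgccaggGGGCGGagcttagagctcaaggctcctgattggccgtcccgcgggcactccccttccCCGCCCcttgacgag
Acad8, chr9:26999550-26999799, minus strand: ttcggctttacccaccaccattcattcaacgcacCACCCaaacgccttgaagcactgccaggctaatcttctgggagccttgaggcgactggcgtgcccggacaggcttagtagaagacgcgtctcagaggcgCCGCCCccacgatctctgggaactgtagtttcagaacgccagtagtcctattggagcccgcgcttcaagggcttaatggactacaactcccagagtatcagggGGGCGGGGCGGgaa

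Among these windows, Acadsb held 3 matches to CCGCCC and none to CACCC, and Aldh6a1 held 2 matches to CACCC and none to CCGCCC. Pcca held 2 matches to CCGCCC, and Acad8, the gene that rose, held 1 match to CACCC and 3 to CCGCCC. Windows were found for 7 of the 8 genes, the exception being Acat1, and where a gene had several the one nearest to its annotated start was used. CACCC on either strand was present in 3 of the 7 (Acad8, Aldh6a1 and Hibadh), against 52% of all 32851 windows of this length. CCGCCC on either strand was present in 5 of the 7 (Acad8, Acadsb, Hibadh, Hibch and Pcca), against 32.7% of all windows. Either motif was present in 6 of the 7, the exception being Pccb, against 64.7% of all windows. The shares of all windows count every window of a gene that has several. They were not matched for G and C content, which was 52.4% to 68% in the 7 windows used. The motifs are different strings, and their matches can share bases at their ends. A match is a string of letters and was not tested as a binding site.

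In the isoleucine branch, the first enzyme of the list fell and the last did not pass the test. Acadsb (ENSMUSG00000030861.15, chr7:131410601-131448944, plus strand, mm10) encodes the short and branched-chain acyl-CoA dehydrogenase, which acts on 2-methylbutyryl-CoA. It had 116, 124 and 124 CPM in Li-KO replicates 0, 1 and 2, against 318, 301 and 344 CPM in Ctl replicates 0, 1 and 2. The 3 Li-KO libraries lay within a narrow band far below the lowest Ctl library. Acadsb averaged 121 ± 4.48 CPM in Li-KO and 320.9 ± 21.5 CPM in Ctl (SD, n = 3 each), a change of -1.40 ± 0.11 on the log2 scale (SE, 95% interval -1.66 to -1.14, adjusted p = 0.000808). On this scale 461 of the genes tested had a lower value. On FPKM, fragments scaled to length and depth, computed by the authors, it averaged 23.4 ± 1.56 in Li-KO and 52.6 ± 4.68 in Ctl. The gene lies within the span of Fgfr2 without sharing exonic bases with it.

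Acat1 (ENSMUSG00000032047.5, chr9:53580522-53610382, minus strand, mm10) encodes the mitochondrial acetoacetyl-CoA thiolase, which splits 2-methylacetoacetyl-CoA into acetyl-CoA and propionyl-CoA at the end of the isoleucine branch and also works in ketone body metabolism. It had 255, 377 and 361 CPM in Li-KO replicates 0, 1 and 2, against 346, 306 and 373 CPM in Ctl replicates 0, 1 and 2. The groups overlapped, with the lowest and the highest library both in Li-KO. The difference was -0.05 ± 0.17 on the log2 scale (SE, 95% interval -0.44 to 0.34, adjusted p = 0.887), an interval that leaves out a decrease of the size measured for Acadsb but does not show that Acat1 was the same in both groups. Its sign turned when either Li-KO replicate 0 (0.13) or Ctl replicate 2 (0.02) was left out.

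In the valine branch the first and the last enzyme of the list moved in opposite directions. Acad8 (ENSMUSG00000031969.15, chr9:26974135-26999566, minus strand, mm10) encodes isobutyryl-CoA dehydrogenase. It had 85.4, 76.4 and 82.1 CPM in Li-KO replicates 0, 1 and 2, against 63.6, 46.8 and 57.3 CPM in Ctl replicates 0, 1 and 2. All 3 Li-KO libraries were above all 3 Ctl libraries. The mean was 81.3 ± 4.54 CPM in Li-KO and 55.9 ± 8.51 CPM in Ctl (SD, n = 3 each), a change of 0.54 ± 0.14 on the log2 scale (SE, 95% interval 0.23 to 0.85, adjusted p = 0.0389). This call was close to the threshold: it was kept when Ctl replicate 0 was left out (adjusted p = 0.0406) and lost when any of the other 5 libraries was (adjusted p up to 0.129), with log2 fold changes of 0.45 to 0.64. It was also lost in the limma test on log2(FPKM + 1), at 0.44 with an adjusted p of 0.0576.

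Hibch and Hibadh, which act in the middle of the valine branch, did not pass the test. Hibch (ENSMUSG00000041426.12, chr1:52844929-52920986, plus strand, mm10) encodes the hydrolase that frees 3-hydroxyisobutyrate from its CoA ester. It had 73.3, 83.7 and 105 CPM in Li-KO replicates 0, 1 and 2, against 71.2, 80.1 and 103 CPM in Ctl replicates 0, 1 and 2. Both groups covered nearly the same range, and the difference was 0.05 ± 0.18 on the log2 scale (SE, 95% interval -0.36 to 0.46, adjusted p = 0.893). Its sign turned without Li-KO replicate 2 (-0.11) and without Ctl replicate 0 (-0.07). A sequence annotated as Gm7512 matched 1123 of the 1155 coding bases of Hibch at 92.6% identity, and at most 29 fragments in a library were assigned to it. How many fragments could belong to either was not tested.

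Hibadh (ENSMUSG00000029776.11, chr6:52546228-52640389, minus strand, mm10) encodes 3-hydroxyisobutyrate dehydrogenase, which oxidises the free acid to methylmalonate semialdehyde. It had 204, 259 and 305 CPM in Li-KO replicates 0, 1 and 2, against 357, 332 and 348 CPM in Ctl replicates 0, 1 and 2. The groups did not overlap, but the Li-KO libraries were spread widely (SD 50.7 CPM around 256 CPM) and the Ctl libraries narrowly (SD 12.4 CPM around 345.6 CPM). The difference was -0.43 ± 0.16 on the log2 scale (SE, 95% interval -0.79 to -0.07, adjusted p = 0.111). Without Li-KO replicate 0 it was -0.27 with an adjusted p of 0.238, and without Li-KO replicate 2 it was -0.58 with an adjusted p of 0.0383. Gm11225 matched 850 of its 1005 coding bases at 91.8% identity and had at most 268 fragments in a library, against 6327 or more of Hibadh.

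Aldh6a1 had the lowest log2 fold change of the 8 genes. It encodes methylmalonate semialdehyde dehydrogenase (ENSMUSG00000021238.10, chr12:84430717-84451004, minus strand, mm10), the enzyme that makes propionyl-CoA at the end of the valine branch and also takes part in thymine breakdown. It had 179.5, 215 and 260.4 CPM in Li-KO replicates 0, 1 and 2, against 805, 738 and 783 CPM in Ctl replicates 0, 1 and 2. The highest Li-KO library was far below the lowest Ctl library, and the spread within Li-KO was wide relative to its mean (18.6% against 4.41% in Ctl, as a coefficient of variation). The mean was 218 ± 40.6 CPM in Li-KO and 775 ± 34.2 CPM in Ctl (SD, n = 3 each), a 3.55-fold lower value and a change of -1.83 ± 0.16 on the log2 scale (SE, 95% interval -2.20 to -1.46, adjusted p = 0.000986). Of the genes tested, 210 had a lower log2 fold change. Aldh6a1 shares 1078 exonic bases with Bbof1 on the opposite strand, and no source used here states the strand setting of the counting. Bbof1 had at most 82 fragments in a library, against 5571 or more of Aldh6a1.

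The subunits of propionyl-CoA carboxylase were both lower in every Li-KO library than in any Ctl library, and Pcca passed the test while Pccb did not. Pcca (ENSMUSG00000041650.15, chr14:122534324-122891100, plus strand, mm10) encodes the alpha subunit, which carries the biotin. It had 50.8, 53.9 and 52.1 CPM in Li-KO replicates 0, 1 and 2, against 93.8, 95.9 and 100.6 CPM in Ctl replicates 0, 1 and 2. Replicates lay close together in both groups, and the mean was 52.3 ± 1.56 CPM in Li-KO and 96.8 ± 3.50 CPM in Ctl (SD, n = 3 each). The change was -0.89 ± 0.10 on the log2 scale (SE, 95% interval -1.12 to -0.65, adjusted p = 0.00277), which left 54.0% of the Ctl level. Pcca shares 241 exonic bases with Ggact on the opposite strand. Ggact averaged 56.9 ± 5.79 FPKM in Li-KO and 56.5 ± 3.42 FPKM in Ctl (SD, n = 3 each), with a log2 fold change of 0.03 ± 0.12 (SE, adjusted p = 0.902).

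Pccb (ENSMUSG00000032527.13, chr9:100982032-101034898, minus strand, mm10) encodes the beta subunit. It had 125, 138 and 139 CPM in Li-KO replicates 0, 1 and 2, against 179.7, 162 and 201 CPM in Ctl replicates 0, 1 and 2. The highest Li-KO library was below the lowest Ctl library, by a smaller margin than for Pcca. The difference was -0.43 ± 0.12 on the log2 scale (SE, 95% interval -0.71 to -0.15, adjusted p = 0.0548). It was called in 4 of 10 other settings, among them scaling by library totals alone (-0.44, adjusted p = 0.0352) and DESeq2 (-0.43, adjusted p = 0.0304). It was not called in the other 6 settings or with any 1 library left out (adjusted p up to 0.171, without Ctl replicate 2). Whether Pcca changed more than Pccb was tested only through their FPKM ratio.

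**Figure D1:**
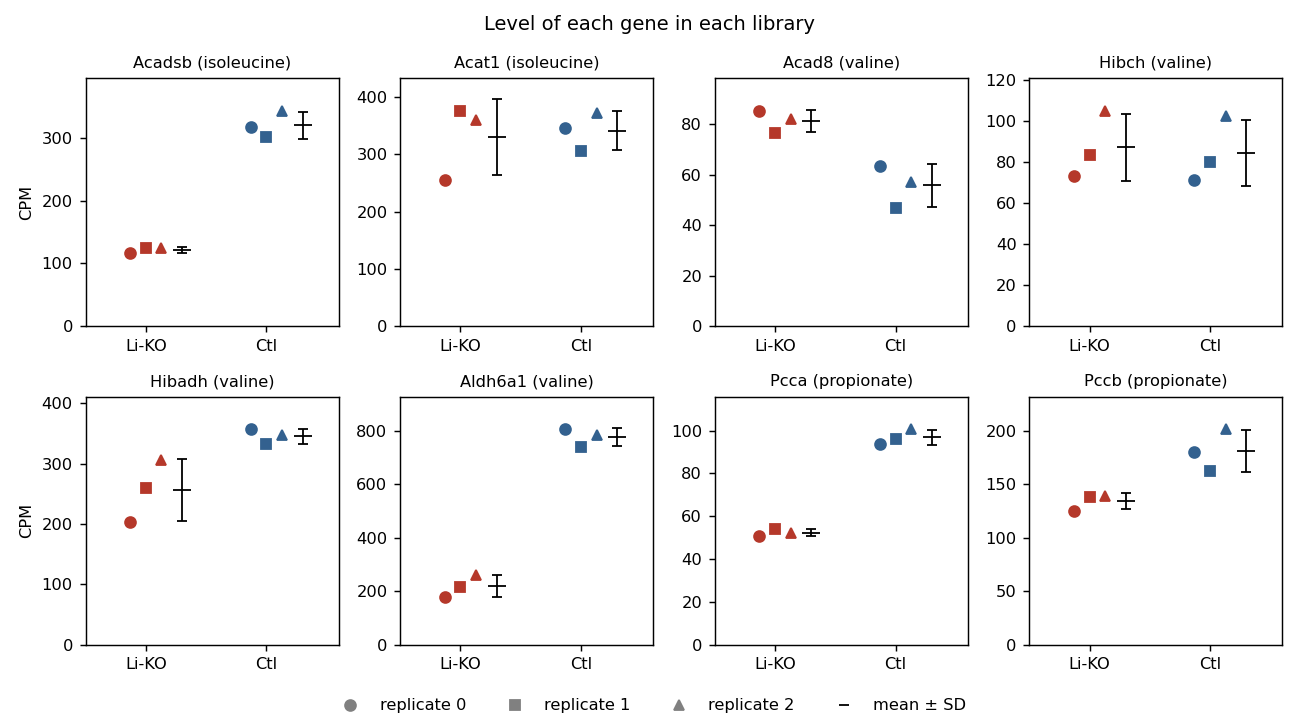
CPM of each of the 8 genes by library, with Li-KO left of Ctl; points are libraries and bars are the mean and SD over 3 libraries. Acadsb, Aldh6a1 and Pcca are lower in every Li-KO library, as are Hibadh and Pccb, which did not pass the test, while Acad8 is higher in every Li-KO library.

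**Figure D2:**
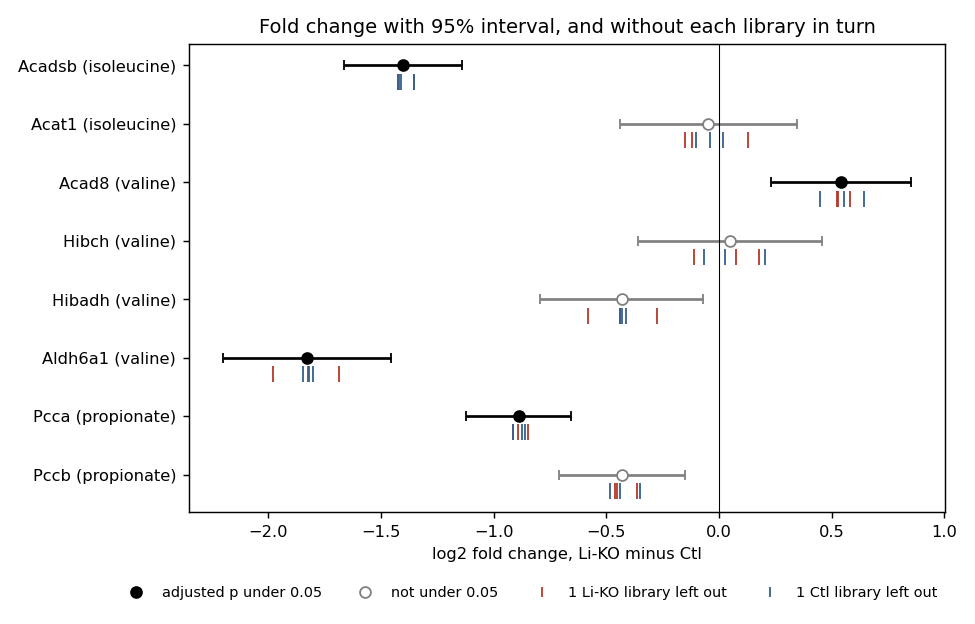
Log2 fold change (Li-KO minus Ctl) of each gene with its 95% interval, with filled points where the adjusted p was under 0.05 and ticks for the value without each library in turn. The ticks of Acadsb, Aldh6a1 and Pcca stay far below 0, those of Acad8 run from 0.45 to 0.64, and those of Acat1 and Hibch lie on both sides of 0.

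Levels were compared between genes per length, on FPKM. In Li-KO the order of mean FPKM, high to low, was Hibadh (109 ± 17.9), Acat1 (66.6 ± 13.1), Aldh6a1 (47.3 ± 6.86), Pccb (44.8 ± 2.79), Hibch (35.1 ± 4.47), Acadsb (23.4 ± 1.56), Acad8 (22.1 ± 1.30) and Pcca (14.3 ± 0.62; SD, n = 3 each). Acat1 with Aldh6a1, Aldh6a1 with Pccb, and Acadsb with Acad8 overlapped between libraries. Within each Li-KO library, however, Acat1 was above Aldh6a1 (ratio of Aldh6a1 to Acat1 0.771, 0.617 and 0.771 in replicates 0, 1 and 2). The order of Aldh6a1 and Pccb and that of Acadsb and Acad8 changed between Li-KO libraries. In Ctl the order was Aldh6a1 (176 ± 6.52), Hibadh (155 ± 3.57), Acat1 (67.4 ± 6.49), Pccb (63.9 ± 8.27), Acadsb (52.6 ± 4.68), Hibch (34.6 ± 6.20), Pcca (27.6 ± 1.64) and Acad8 (16.1 ± 2.22). Here Acat1 with Pccb, Pccb with Acadsb, and Hibch with Pcca overlapped between libraries. Within each Ctl library, Acadsb was below Pccb (ratio 0.812, 0.872 and 0.795 in replicates 0, 1 and 2) and Hibch above Pcca (1.12, 1.21 and 1.41). Acat1 was above Pccb in Ctl replicates 0 and 1 and nearly equal to it in replicate 2 (ratio 0.9996). Pcca was thus the last of the 8 in every Li-KO library and Acad8 in every Ctl library, and Aldh6a1 was the first in every Ctl library but in none of Li-KO.

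The 8 genes summed to 315, 382 and 391 FPKM in Li-KO replicates 0, 1 and 2, against 592, 560 and 627 FPKM in Ctl replicates 0, 1 and 2. Aldh6a1 made up 12.5% to 13.8% of that sum in Li-KO and 28.4% to 30.5% in Ctl. The share of Acat1 was 16.6% to 20.3% in Li-KO and 10.8% to 11.7% in Ctl, while its own mean FPKM was 66.6 in Li-KO and 67.4 in Ctl. Li-KO replicate 0 had the lowest CPM within Li-KO for 7 of the 8 genes, and Ctl replicate 1 the lowest within Ctl for 6 of the 8. The genes of a library are measured together, so these are not independent observations.

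**Figure D3:**
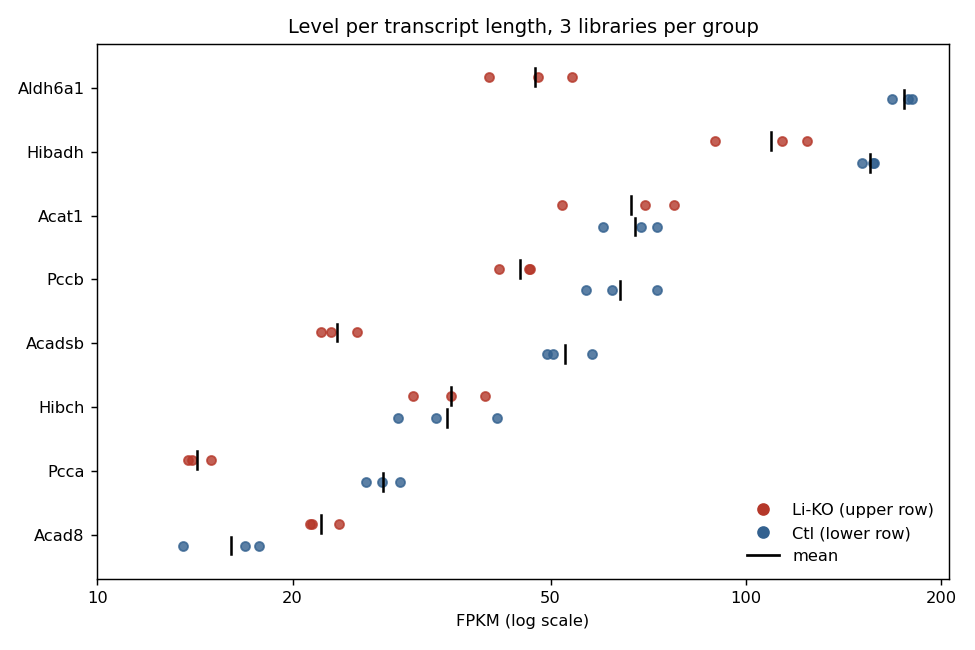
FPKM of the 8 genes on a log axis, with Li-KO in the upper and Ctl in the lower row of each gene, a point per library and a line at the mean of 3 libraries. Aldh6a1 averages 47.3 FPKM in Li-KO, between Acat1 (66.6) and Pccb (44.8) there, and 176 FPKM in Ctl, above the other 7 genes.

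Ratios of FPKM within a library compared neighbouring enzymes. The ratio of Acadsb to Acad8, the dehydrogenases that open the isoleucine and the valine branch, was 0.972, 1.18 and 1.03 in Li-KO replicates 0, 1 and 2, against 2.84, 3.65 and 3.43 in Ctl replicates 0, 1 and 2. The ratio of Hibadh to Aldh6a1, consecutive enzymes of the valine branch, was 2.23, 2.38 and 2.31 in Li-KO, against 0.869, 0.899 and 0.887 in Ctl. Hibadh was above Aldh6a1 in all 3 Li-KO libraries and below it in all 3 Ctl libraries. The ratio of Hibch to Hibadh, also consecutive, averaged 0.323 ± 0.017 in Li-KO and 0.222 ± 0.038 in Ctl (SD, n = 3 each). The ratio of Pcca to Pccb, the subunits of the carboxylase, was 0.337, 0.322 and 0.298 in Li-KO, against 0.419, 0.484 and 0.401 in Ctl. The groups did not overlap in these 4 ratios, nor in 25 of all 28 pairs of the 8 genes, so these 4 do not stand apart from the other pairs. The share among pairs of all genes tested was not computed. The ratios are made from the FPKM given above, so this count is not separate from the changes of the single genes. Each of the 25 had an exact two-sided permutation p of 0.1, the smallest that 3 libraries against 3 can give, and 0.112 after adjustment over the 28 pairs. The ratio of Hibadh to Pccb averaged 2.43 in Li-KO and 2.45 in Ctl and differed by less than the spread between libraries (exact permutation p = 0.9, also 0.9 after adjustment).

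The genes around the 8 were described from 8 lists, which held 65 tested genes of 67 names (Mmut is a newer name of Mut, and Bcat1 had too few counts). Of the 65, 13 fell (5.90% of all genes tested), 8 rose (6.11%) and 44 did not pass the test, with a median log2 fold change of 0.14, against -0.01 for all genes. With 1 library left out, 11 to 15 of the 65 were called lower. Higher calls numbered 7, 1 and 9 without Li-KO replicates 0, 1 and 2, and 5, 1 and 2 without Ctl replicates 0, 1 and 2. DESeq2 made 18 and limma on log2(FPKM + 1) made 5. The number of higher calls over all genes also moved, from 1010 in the main fit to 1496 in DESeq2. With 1 library left out it ran from 198 (without Ctl replicate 1) to 1102 (without Li-KO replicate 2). Whether the 65 genes shifted more than all genes was not tested.

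Upstream of the branches and along the leucine branch, 7 of 11 tested genes fell (Ivd, Dbt, Bckdhb, Ppm1k, Mccc1, Mccc2 and the aminotransferase Bcat2) and 4 did not pass the test, with a median log2 fold change of -1.02. Ivd, the leucine branch's own acyl-CoA dehydrogenase, averaged 33.3 ± 5.57 CPM in Li-KO and 266 ± 55.6 CPM in Ctl (SD, n = 3 each; log2 fold change -2.99, adjusted p = 0.000495). Dbt and Bckdhb, components of the dehydrogenase complex that feeds all 3 branches, changed by -1.68 (adjusted p = 0.00213) and -1.31 (adjusted p = 0.00173) on the log2 scale. Ppm1k, the phosphatase that activates that complex, changed by -1.13 (adjusted p = 0.00539). Mccc1 and Mccc2, the subunits of the biotin-dependent carboxylase of the leucine branch, changed by -1.18 (adjusted p = 0.00269) and -0.94 (adjusted p = 0.00361). Bckdha, another component of the complex, and Auh, the leucine branch's hydratase, had log2 fold changes of 0.29 and 0.31 and did not pass the test.

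Of 6 genes for the hydration and oxidation steps between the members and the matching steps of fatty acid oxidation, 1 fell and 1 rose, while DESeq2 called 2 in each direction. Hsd17b10, which oxidises 2-methyl-3-hydroxybutyryl-CoA between Acadsb and Acat1, averaged 58.6 ± 5.92 CPM in Li-KO and 113 ± 11.7 CPM in Ctl (SD, n = 3 each; log2 fold change -0.95, adjusted p = 0.00543). Echs1, the short-chain enoyl-CoA hydratase of both branches, averaged 270 ± 20.7 CPM in Li-KO and 186 ± 26.8 CPM in Ctl (log2 fold change 0.54, adjusted p = 0.0435). That call was kept without Ctl replicate 0, lost without any of the other 5 libraries (adjusted p up to 0.157), and lost in limma on log2(FPKM + 1) (adjusted p = 0.0638). Hadhb (0.52) is the thiolase subunit of the mitochondrial trifunctional protein and also on the list of thiolases. Ehhadh (-0.64) is a peroxisomal enzyme of fatty acid oxidation. Hadhb and Ehhadh did not pass the test and were among those called by DESeq2 (adjusted p = 0.0365 and 0.0345). Hadhb was also called by edgeR with library totals (adjusted p = 0.0498), and Ehhadh without Li-KO replicate 2 (adjusted p = 0.0411). Along the isoleucine branch, Acadsb and Hsd17b10 were called lower and Acat1 was not called. Along the valine branch, Acad8 and Echs1 were called higher, Hibch and Hibadh were not called, and Aldh6a1 was called lower.

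Downstream of propionyl-CoA carboxylase, 1 of 11 tested genes fell and 1 rose (2 rose in DESeq2). Mut, the methylmalonyl-CoA mutase, averaged 138 ± 9.18 CPM in Li-KO and 278 ± 18.0 CPM in Ctl (SD, n = 3 each; log2 fold change -1.005, adjusted p = 0.00289). Mmadhc, which takes part in cobalamin trafficking to the mutase, averaged 66.2 ± 11.7 CPM in Li-KO and 42.9 ± 1.86 CPM in Ctl (log2 fold change 0.63, adjusted p = 0.0312). Without Li-KO replicate 1 or any 1 Ctl replicate it was not called (adjusted p up to 0.112). Sucla2 (0.42), a subunit of succinyl-CoA ligase, and Mmachc (0.29), another cobalamin protein, did not pass the test. Sucla2 was called by DESeq2 (adjusted p = 0.0462). The biotin list had 4 of 8 lower, namely Mccc1, Mccc2, Acaca (acetyl-CoA carboxylase, -0.94, adjusted p = 0.00775) and Pcx (pyruvate carboxylase, -0.51, adjusted p = 0.0398), and the call of Pcx was kept only without Li-KO replicate 2 (adjusted p up to 0.139 without another library). By edgeR 0 of the 8 were called higher, 2 had an unadjusted p under 0.05 in that direction, and DESeq2 called 1. In the same list Slc5a6, a biotin and pantothenate transporter (1.29, adjusted p = 0.0563), and Acacb (0.50) did not pass the test. Slc5a6 was highest in Li-KO replicate 0 (54.0 CPM, with 24.1 CPM in the next highest library, Li-KO replicate 1): it was 0.69 (adjusted p = 0.0657) without that library and was called without Li-KO replicate 2 (1.59, adjusted p = 0.0168).

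Among 10 other acyl-CoA dehydrogenases, 2 fell and 1 rose, with a median log2 fold change of 0.34. Those that fell were Ivd and Gcdh, the glutaryl-CoA dehydrogenase of lysine and tryptophan breakdown (-0.69, adjusted p = 0.0321), and Acad9 rose (0.51, adjusted p = 0.026). The call of Gcdh was lost without Li-KO replicates 0 or 1 or Ctl replicates 1 or 2 (adjusted p up to 0.106), and that of Acad9 without Li-KO replicate 1 or any 1 Ctl replicate (adjusted p up to 0.104). Acad10 (0.69, adjusted p = 0.052) and Acad12 (0.75) did not pass the test and were called by DESeq2. In this list DESeq2 made 4 higher calls. Acad10 was called in 7 of the 10 other settings, among them limma-voom (adjusted p = 0.0432) and edgeR with library totals (adjusted p = 0.0493). Acad10 was also called without Li-KO replicate 2 (0.76, adjusted p = 0.0498) and without Ctl replicate 0 (0.92, adjusted p = 0.0179). Of the 3 electron transfer genes that take electrons from these dehydrogenases, 0 were called by edgeR or DESeq2 and 0 had an unadjusted p under 0.05 (Etfdh 0.31, Etfa -0.31).

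Among 9 other thiolases and ketone body enzymes, 1 rose and 0 were called lower by edgeR or DESeq2, with 1 at an unadjusted p under 0.05 in the lower direction. Higher calls numbered 5 in DESeq2, 3 with library totals and 0 in limma on all genes above 0. The gene that rose was Bdh1, which interconverts acetoacetate and 3-hydroxybutyrate (0.72, adjusted p = 0.029). The call of Bdh1 was lost without Li-KO replicates 0 or 1 or Ctl replicates 0 or 1 (adjusted p up to 0.0946). Acaa1a (0.41) and Acat3 (0.43) did not pass the test in edgeR and were called by DESeq2 (adjusted p = 0.0393 and 0.0291).

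Of 11 genes on side routes that join the pathway, 1 fell and 4 rose. Abat, the 4-aminobutyrate aminotransferase that also acts on beta-alanine and 3-aminoisobutyrate and thereby feeds methylmalonate semialdehyde to Aldh6a1, had 131, 88.9 and 93.5 CPM in Li-KO replicates 0, 1 and 2, against 542, 455 and 525 CPM in Ctl replicates 0, 1 and 2. Its change of -2.28 ± 0.18 on the log2 scale (SE, adjusted p = 0.000739) was the lowest of this list. Acss3, a mitochondrial acyl-CoA synthetase that activates propionate, had 54.9, 56.5 and 64.0 CPM in Li-KO replicates 0, 1 and 2, against 9.56, 9.55 and 15.9 CPM in Ctl replicates 0, 1 and 2. Its change of 2.33 ± 0.22 on the log2 scale (SE, adjusted p = 0.00111) was the highest of the 65 genes. Agxt2 (0.77, adjusted p = 0.0181), another aminotransferase acting on 3-aminoisobutyrate, Upb1 (0.66, adjusted p = 0.0346), an enzyme of pyrimidine breakdown, and Acss2 (0.63, adjusted p = 0.0484), an acetyl-CoA synthetase, also rose. Dpys (0.58) and Acsf3 (0.40) did not pass the test. With 1 library left out, the calls of Abat and Acss3 were kept in all 6 cases. That of Agxt2 was lost without Li-KO replicate 1 or Ctl replicates 1 or 2 (adjusted p up to 0.0846), that of Upb1 without Li-KO replicates 1 or 2 or Ctl replicates 1 or 2 (adjusted p up to 0.114), and that of Acss2 was kept only without Li-KO replicate 2 (adjusted p up to 0.17 without another library). Acss2 also lost its call in 4 of the 10 other settings, among them edgeR with library totals (adjusted p = 0.0652) and limma on log2(FPKM + 1) (adjusted p = 0.0651).

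**Figure D4:**
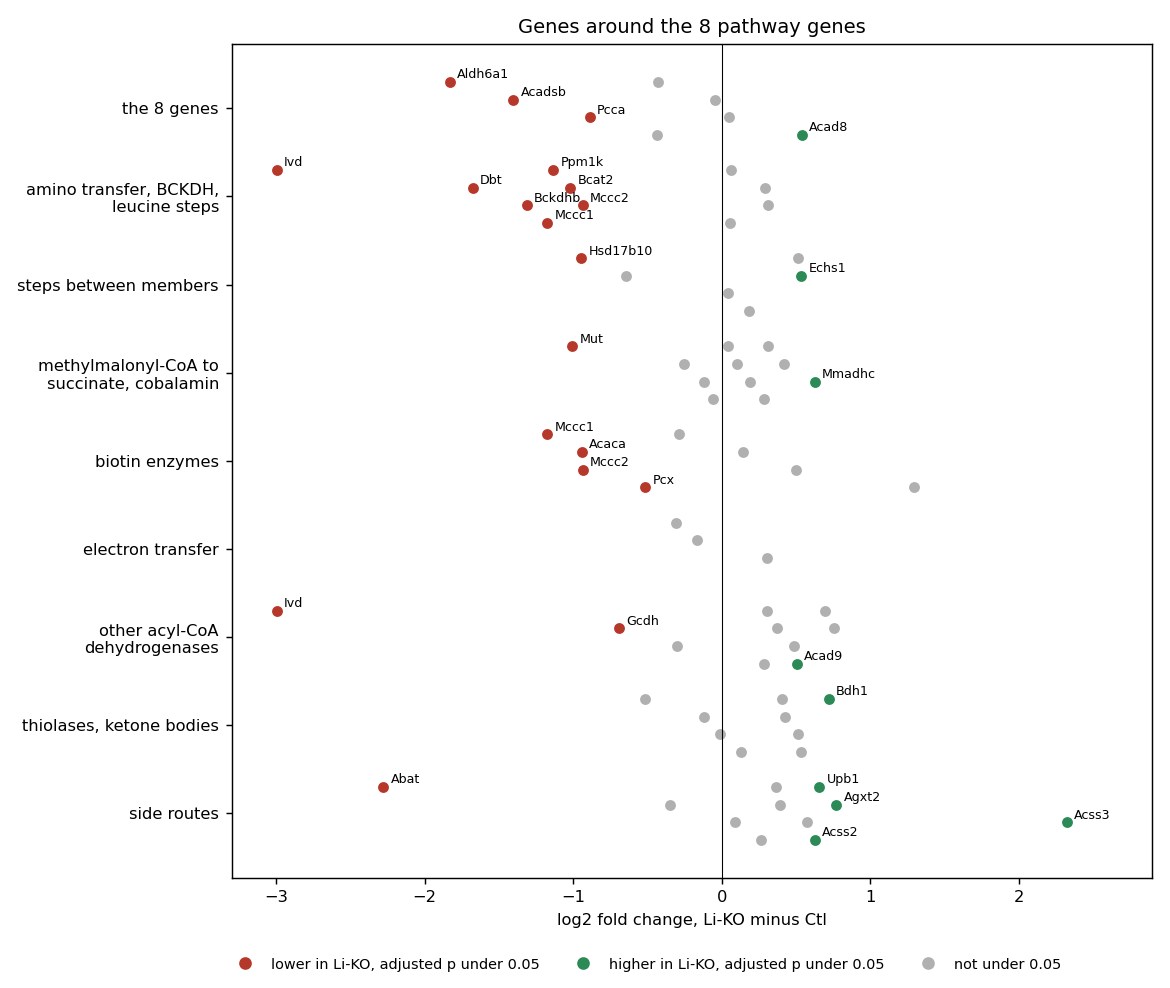
Log2 fold change (Li-KO minus Ctl) of the 8 genes and of the genes in each list around them, with red for lower and green for higher calls and grey for genes that did not pass the test; a gene on several lists appears on each. Ivd at -2.99 and Acss3 at 2.33 are the ends of the range.

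Over the 6 libraries, the log2 CPM of Pcca followed that of Acadsb most closely among the 8 genes (Pearson's r = 0.998), then Aldh6a1 (0.989), Pccb (0.936), Hibadh (0.821), Acat1 (0.230), Hibch (-0.042) and Acad8 (-0.876). Among 8771 other genes with a mean of at least 10 CPM, the 5 most like Acadsb were Adam9 (0.999), Lrp1 (0.997), Aldh7a1 (0.997), Asah2 (0.996) and Dmxl2 (0.995). The libraries fall into 2 groups and all genes share them, so these values depend on the difference between Li-KO and Ctl and are a description without a test.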

How the data were processed

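RNA from mouse liver was sequenced in 6 libraries, made with a stranded total RNA kit per the labels' protocols. Per the submitters' processing notes, STAR, Cufflinks, Cuffdiff and mm10 were used. No source used here gives versions, annotation or strand setting. The authors deposited, per the file headers, estimated counts of raw fragments (3.29% of the values not whole) and FPKM scaled by Cuffdiff. The WT and KO conditions of the table were taken as Ctl and Li-KO by name. Estimated counts were rounded, and 77 genes that Cuffdiff had skipped were left out of tests and library totals. Gene IDs were matched to symbols (48051 matched, 381 not), and positions are from GENCODE M21 on mm10.

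Genes were filtered with filterByExpr (minimum count 10, minimum total 15; 16533 kept), scaled by TMM and tested with edgeR 4.0.16 (quasi-likelihood, group as the only term, two-sided, Benjamini-Hochberg adjustment over all 16533 genes). A call is an adjusted p under 0.05. CPM uses the TMM-scaled totals, and the procedure was tested on simulated data. DESeq2 1.42.0, limma 3.58.1, other scalings and filters, and leaving out each library were alternatives. Copies were searched with blastn 2.17.0 (at least 90% identity over at least 100 bases). R 4.3.3, Python 3.11.15, pandas 2.3.3, numpy 2.4.6, scipy 1.17.1 and matplotlib 3.10.9 were used.

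The members and lists were chosen with earlier results of these data known. Genes named were Klf15, the 8 genes, up to 6 called and 2 uncalled genes per list by smallest p, and the 5 genes most like Acadsb. Overlapping genes and copies were added for what they share with a member. The values of the markers Ttr, Asgr1, Apoa1, Hnf4a, Dcn, Col3a1, Sox9, Epcam and Spp1 were added after they were seen. A gene of these lists is not reported here and is not in their counts.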

Additional observations from a re-analysis of the deposited data

How the results depend on the processing

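The lower calls of Acadsb, Aldh6a1 and Pcca were kept under all 10 other settings and all 6 settings that leave out 1 library. Over the 10 other settings the log2 fold change ranged from -1.41 to -1.13 for Acadsb, from -1.90 to -1.82 for Aldh6a1 and from -0.95 to -0.88 for Pcca. The value of -1.13 for Acadsb came from limma on log2(FPKM + 1), against -1.40 in the main edgeR fit. Without 1 library, calls over all genes ranged from 198 to 1102 higher and 234 to 1447 lower, members from 0 to 1 higher, neighbouring genes from 1 to 9 higher, Acad8 from 0.45 to 0.64, Hibadh from -0.58 to -0.27, Hibch from -0.11 to 0.21 and Acat1 from -0.15 to 0.13. Reversed values were -0.11 and -0.07 for Hibch (without Li-KO replicate 2 and Ctl replicate 0) and 0.13 and 0.02 for Acat1 (without Li-KO replicate 0 and Ctl replicate 2). DESeq2 called 1496 genes higher and 1515 lower, 18 neighbouring genes higher and 14 lower, and Pccb at -0.43. Library totals gave Pccb -0.44. With limma on log2(FPKM + 1) and on log2(FPKM + 0.1), 0 members and 5 neighbouring genes were higher, Acad8 was 0.44 and 0.47, and Pccb -0.50 and -0.51, both called. With limma on all genes above 0, 395 genes were higher and 413 lower, with 0 members and 2 neighbouring genes higher and Acad8 at 0.44. Pcx, Gcdh, Bdh1, Agxt2 and Upb1 were among the genes that lost their calls in that setting (adjusted p 0.0746 to 0.0873). The cause of these shifts was not tested. The labels state no pairing of libraries by replicate number, and the correlations of deviations between same numbers (0.0183, 0.0813 and 0.0669) cannot decide it. Replicates 1 and 2 of each group correlated best with their own number in the other group, and replicate 0 of each did not. With the replicate as a block, the SE of Hibch was 0.109, against 0.179 without it, and that of Acadsb was 0.119, against 0.115. The fit with the replicate as a block gave 956 genes higher and 1015 lower, and 3 members lower and 1 higher, against 1010, 976, 3 and 1 without it; Echs1 (adjusted p = 0.0599) lost its call, and Slc5a6 (0.0466) and Acad10 (0.0284) gained one. Counting error is small at this depth, so the spread between 3 libraries limits the precision.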
